A study of Homo sapiens with 6 samples.

Results

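DNA replication genes were followed in A549 cells that had been given a synthetic mimic of either miR-608 or miR-552-3p, or else a negative control mimic. The set holds 51 genes of origin licensing, helicase loading and activation, DNA synthesis, nucleotide supply and entry into S phase. Its members were all array probes whose platform gene symbol is one of the 51 and whose detection p-value was under 0.05 on at least 2 of the 6 arrays. The detection p-value is the chance that background alone would give a signal at least as high. Of 77 listed probes 72 were kept, and they cover 50 of the 51 genes, out of 20749 kept probes and 11817 named genes in all. A549 is an established human lung adenocarcinoma line. Each of the 3 groups, miR-608 mimic, miR-552-3p mimic and control mimic, had 2 arrays of total RNA prepared 24 h after a lipid transfection, and all 3 groups thus share the transfection and a mimic. No label states that replicate arrays stem from separate cultures, so the p-values reflect the spread of these samples alone, and that spread may be technical.

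Replication begins when the origin recognition complex, with CDC6 and CDT1, loads the MCM2 to MCM7 helicase onto DNA while cells are still before S phase, a step called licensing. The kinases CDC7 and CDK2 then turn the loaded helicase on by attaching CDC45 and the GINS complex, and the polymerases alpha, epsilon and delta copy the strands behind it with the help of the PCNA clamp, its RFC loader and the single-strand binding protein RPA. Most of these genes are transcribed under E2F factors around the boundary of G1 and S phase, and their mRNAs peak there in cycling cells.

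A microRNA finds its target mRNAs mainly through its seed, bases 2 to 8 from the 5′ end, so the sequences of both are shown with the seed in capitals (RefSeq, GRCh38.p14). The mature miR-608 lies at chr10:100975000-100975024 on the plus strand and has 25 bases. The mature miR-552-3p lies at chr1:34669614-34669634 on the minus strand and has 21 bases.
hsa-miR-608: aGGGGUGGuguugggacagcuccgu
hsa-miR-552-3p: aACAGGUGacugguuagacaa
The 2 seeds, GGGGUGG and ACAGGUG, are different. Matches to them in the mRNAs of the replication genes were not analysed here.

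The arrays were alike in brightness, with a median signal of 181.7 to 200.7 and 18550 to 19758 probes detected, and values over all kept probes correlated at 0.993 to 0.994 within groups and at 0.968 to 0.978 between groups. The epithelial markers KRT8, KRT18, KRT19, EPCAM and CDH1 were detected on every array, as were 3 of 4 genes typical of A549. The 5 alveolar type II markers, among them SFTPC and NKX2-1, were detected on no array. Of the markers of other cell types, 3 endothelial and 3 immune ones were detected on no array, and of 3 fibroblast ones COL1A1 was. The probe of CCNE2, an S-phase cyclin, was detected on 0 arrays, and this gene has no value below. The other 4 probes left out belong to ORC5, PCNA and POLD3 (0 arrays each) and MCM7 (1 array), which have other probes. Just inside the rule lie DBF4 and a second probe of RFC5, detected on 3 arrays each.

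Values below are log2 signals after background correction and quantile normalization, a difference is the tested mimic minus its comparator with its standard error (2 arrays a group), and a gene is represented by its brightest kept probe. A gene is said to rise or fall where the Benjamini-Hochberg adjusted p of limma over all 20749 kept probes was under 0.05. The sharpest changes were losses of polymerase and helicase subunits with miR-552-3p: POLD3, GINS3 and POLA1 fell by more than 1 log2 unit. With miR-552-3p 28 of the 50 genes fell (56% of them, against 20.0% of all named genes) and 1 rose (2%, against 15.6%). With miR-608 16 fell (32%, against 16.8% of all named genes) and 3 rose (6%, against 16.3%). Fewer cells in S phase and less RNA of these genes per cell cannot be told apart in such bulk RNA. Over all probes, called either way, the share was 30.9% for miR-552-3p and 28.4% for miR-608. The median difference of the 50 genes was -0.32 for miR-552-3p, where all genes had -0.002, and -0.13 for miR-608, where all genes had 0.02. The 2 comparisons share the control arrays, so their values are set side by side and their likeness is not taken as a result.

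**Figure D1:**
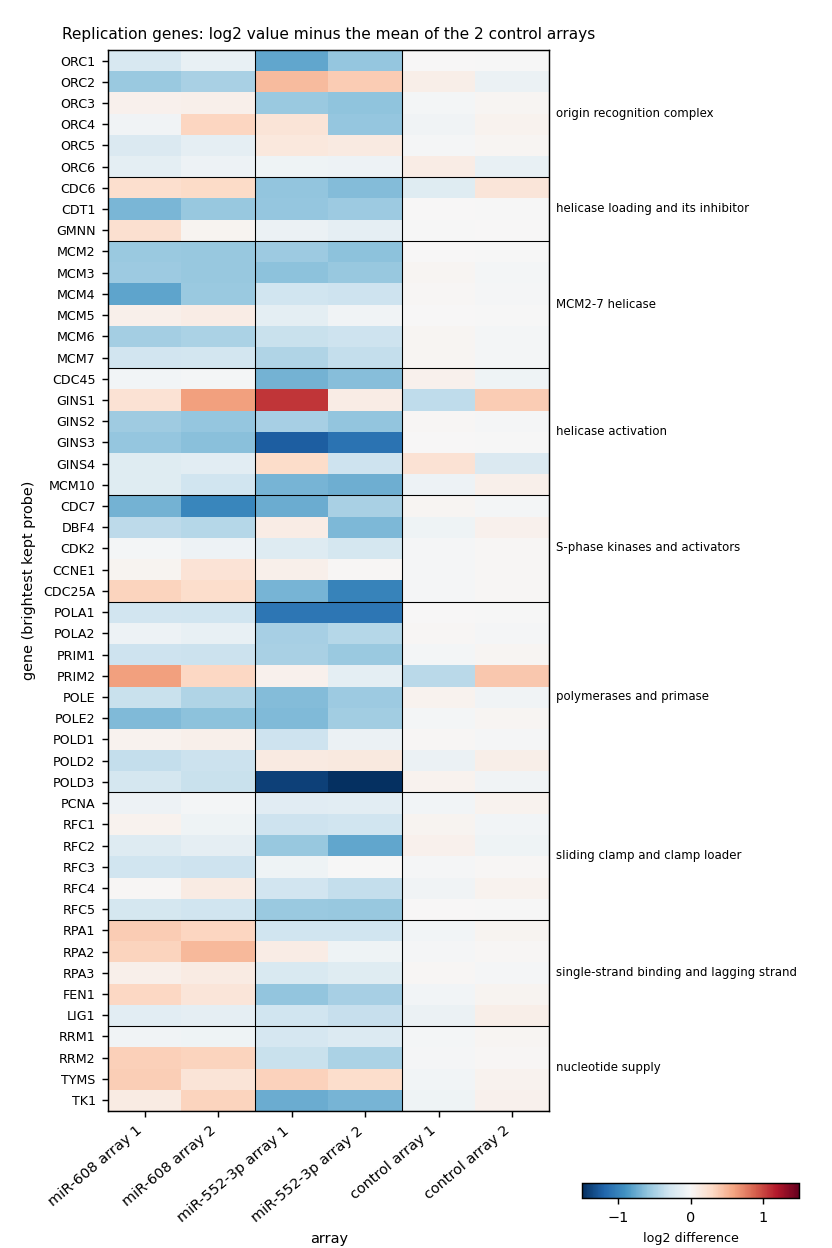
Each row is one replication gene by its brightest kept probe, grouped by role, and each column one array; colour gives the log2 value minus the mean of the 2 control arrays (blue lower, red higher). The miR-552-3p columns are blue for most rows, darkest at POLD3, GINS3 and POLA1. The miR-608 columns hold both colours, with the called RPA1, RPA2 and RRM2 red, as are PRIM2 and GINS1, which were not called.

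With 2 arrays a group, single arrays mattered. When each of the 6 arrays was left out in turn, 6 to 12 of the 50 genes passed with the miR-608 mimic and 19 to 25 with miR-552-3p, against 19 and 29 over all arrays. The probes called over the whole array then numbered 2664 to 4880 for miR-608, against 5893, and 3472 to 5668 for miR-552-3p, against 6403. The 6 genes that fell with miR-608 in every such fit were MCM2, MCM3, CDT1, GINS2, GINS3 and POLE2. With miR-552-3p 16 of the 28 did: MCM2, MCM3, MCM10, CDC45, CDT1, GINS2, GINS3, ORC1, ORC3, RFC5, POLA1, PRIM1, POLE2, POLD3, TK1 and CDC25A. None of the 3 rises with miR-608, nor the single rise with miR-552-3p, passed in all of them. With median centring in place of quantile normalization, the miR-608 calls of RFC5, PRIM1, POLD2, RPA2 and RRM2 and the miR-552-3p calls of MCM6, MCM7, RFC4 and RPA1 did not pass. Without the detection filter, these were lost as well as the miR-608 calls of RFC3, POLA1, POLE and RPA1 and the miR-552-3p calls of CDC6, ORC2, RFC1, RRM2 and CDC7.

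**Figure D2:**
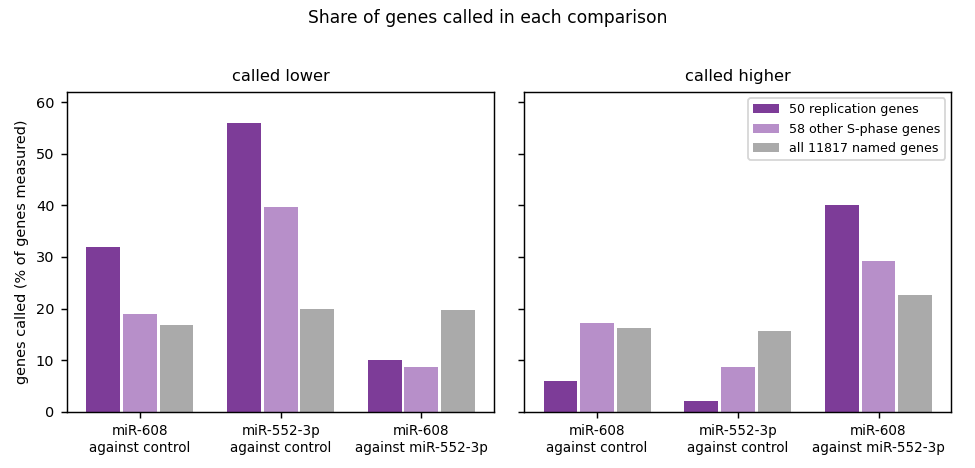
Bars give the percentage of genes called lower (left) and higher (right) in each comparison, for the 50 replication genes, 58 other replication and S-phase genes and all 11817 named genes. The replication genes stand at 32% and 56% lower with miR-608 and miR-552-3p, against 16.8% and 20.0% of all named genes.

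The origin recognition complex marks the DNA sites where replication can start. Of its 6 subunits 1 fell with miR-608 (16.7%, near the 16.8% of all named genes), while 2 fell (33.3%, against 20.0%) and 1 rose (16.7%, near the 15.6%) with miR-552-3p. ORC2 moved in opposite directions: its values were 10.13 and 10.19 on the miR-608 arrays, 11.15 and 11.06 on the miR-552-3p arrays, and 10.77 and 10.60 on the control arrays. All 3 groups are separate, with miR-608 lowest and miR-552-3p highest. The difference was -0.52 ± 0.09 with miR-608 (adjusted p = 0.0159) and 0.42 ± 0.09 with miR-552-3p (adjusted p = 0.0261). Neither call passed without some arrays: the fall needed control array 1 and both miR-608 arrays (adjusted p of 0.0618 to 0.0773 without one of them), the rise control array 2 and both miR-552-3p arrays (0.0724 to 0.115). ORC1, a subunit whose amount changes over the cell cycle, had 9.03 and 9.16 on the miR-608 arrays, 8.49 and 8.69 on the miR-552-3p arrays, and 9.28 and 9.26 on the control arrays. Its miR-552-3p arrays lay below all others, and it differed by -0.68 ± 0.10 (1.60-fold lower, adjusted p = 0.00838). ORC3, a core subunit, differed by -0.58 ± 0.07 with miR-552-3p (adjusted p = 0.00524), and by 0.07 with miR-608, which did not pass. ORC4, ORC5 and ORC6 passed in neither comparison with the control, with differences between -0.20 and 0.15.

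CDC6 and CDT1 bring the helicase to the origin, and geminin (GMNN) blocks CDT1 once S phase has begun. CDT1 fell with both mimics: it had 10.03 and 10.15 on the miR-608 arrays, 10.14 and 10.17 on the miR-552-3p arrays, and 10.72 and 10.71 on the control arrays. Its control arrays stand above the other 4. The differences were -0.62 ± 0.08 (1.54-fold lower, adjusted p = 0.00642) with miR-608 and -0.56 ± 0.08 (adjusted p = 0.00701) with miR-552-3p. CDC6 fell with miR-552-3p: its values were 7.45 and 7.49 on the miR-608 arrays, 6.62 and 6.55 on the miR-552-3p arrays, and 7.02 and 7.39 on the control arrays. The miR-552-3p arrays lie below the control arrays, -0.62 ± 0.13 (adjusted p = 0.0238). The miR-608 difference of 0.27 ± 0.13 did not pass (adjusted p = 0.205). The CDC6 probe was dim on the miR-552-3p arrays, with signals of 233.7 and 224.2 before normalization, although it was detected on all 6 arrays. The CDC6 call was lost without control array 2 or either miR-552-3p array (adjusted p of 0.0558 to 0.0998). GMNN differed by 0.14 with the miR-608 mimic and -0.11 with miR-552-3p, and neither passed.

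The MCM2 to MCM7 ring is the motor that unwinds DNA, and 4 of its 6 subunits (66.7%) fell with each mimic, against 16.8% of all named genes for miR-608 and 20.0% for miR-552-3p. MCM2 had 11.05 and 11.04 on the miR-608 arrays, 11.05 and 10.99 on the miR-552-3p arrays, and 11.61 and 11.60 on the control arrays. MCM3, another subunit, had 13.37 and 13.34 on the miR-608 arrays, 13.30 and 13.35 on the miR-552-3p arrays, and 13.95 and 13.89 on the control arrays. In both genes the arrays of the 2 mimics overlap and lie below the control. The MCM2 differences were -0.56 ± 0.07 with miR-608 (adjusted p = 0.00680) and -0.58 ± 0.07 with miR-552-3p (adjusted p = 0.00510). The MCM3 differences were -0.56 ± 0.07 (adjusted p = 0.00704) and -0.59 ± 0.07 (adjusted p = 0.00508). The 4 differences are of about the same size. MCM4 had 12.18 and 12.41 on the miR-608 arrays, 12.68 and 12.67 on the miR-552-3p arrays, and 12.99 and 12.96 on the control arrays. Its miR-608 arrays were lowest, -0.68 ± 0.10 (1.60-fold lower, adjusted p = 0.00921), and the call was lost only without control array 1 (adjusted p = 0.0557). The miR-552-3p difference in MCM4 was -0.30 (adjusted p = 0.0776) by this probe and -0.44 (adjusted p = 0.0385) by its other probe, so the call depends on the probe. MCM6 also fell with both: it had 13.32 and 13.35 on the miR-608 arrays, 13.49 and 13.52 on the miR-552-3p arrays, and 13.86 and 13.80 on the control arrays. Its differences were -0.50 ± 0.07 (adjusted p = 0.00920) with miR-608 and -0.32 ± 0.07 (adjusted p = 0.0277) with miR-552-3p. The first was lost without control array 1 or miR-608 array 1 (adjusted p of 0.0516 to 0.0544), the second with any single array removed (0.0534 to 0.115). MCM7 fell with miR-552-3p, -0.40 ± 0.08 (adjusted p = 0.0167), a call that needed each control and each miR-552-3p array (0.0507 to 0.0836) and that its dimmer probe, at -0.08, did not share. MCM5 passed with neither mimic (0.10 and -0.10), with 95% intervals of -0.10 to 0.29 and -0.29 to 0.10.

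CDC45 and the 4 GINS subunits join the ring to form the active helicase, and MCM10 is needed for its start. GINS3 changed most in this group: its values were 10.24 and 10.19 on the miR-608 arrays, 9.58 and 9.71 on the miR-552-3p arrays, and 10.83 and 10.81 on the control arrays. The 3 groups are separate, with the control highest and miR-552-3p lowest. It fell by 2.26-fold with miR-552-3p (-1.18 ± 0.08, adjusted p = 0.00128) and by 1.52-fold with miR-608 (-0.60 ± 0.08, adjusted p = 0.00731). GINS2, its partner, had 11.95 and 11.90 on the miR-608 arrays, 11.99 and 11.90 on the miR-552-3p arrays, and 12.51 and 12.47 on the control arrays. The arrays of the mimics overlap and all lie below the control, with differences of -0.56 ± 0.08 with miR-608 (adjusted p = 0.00797) and -0.54 ± 0.08 with miR-552-3p (adjusted p = 0.00731). GINS1 and GINS4 passed with neither mimic, but GINS1 was detected on 5 arrays and its 95% interval with miR-552-3p ran from -0.45 to 1.63. CDC45 had 11.94 and 11.95 on the miR-608 arrays, 11.26 and 11.33 on the miR-552-3p arrays, and 12.04 and 11.91 on the control arrays. Only its miR-552-3p arrays stand apart, -0.68 ± 0.08 (1.60-fold lower, adjusted p = 0.00488), and the miR-608 difference was -0.03. MCM10 had 11.18 and 11.06 on the miR-608 arrays, 10.66 and 10.63 on the miR-552-3p arrays, and 11.28 and 11.44 on the control arrays. Its difference was -0.72 ± 0.09 (adjusted p = 0.00559) with the miR-552-3p mimic and -0.24 ± 0.09 with miR-608, which did not pass (adjusted p = 0.122).

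**Figure D3:**
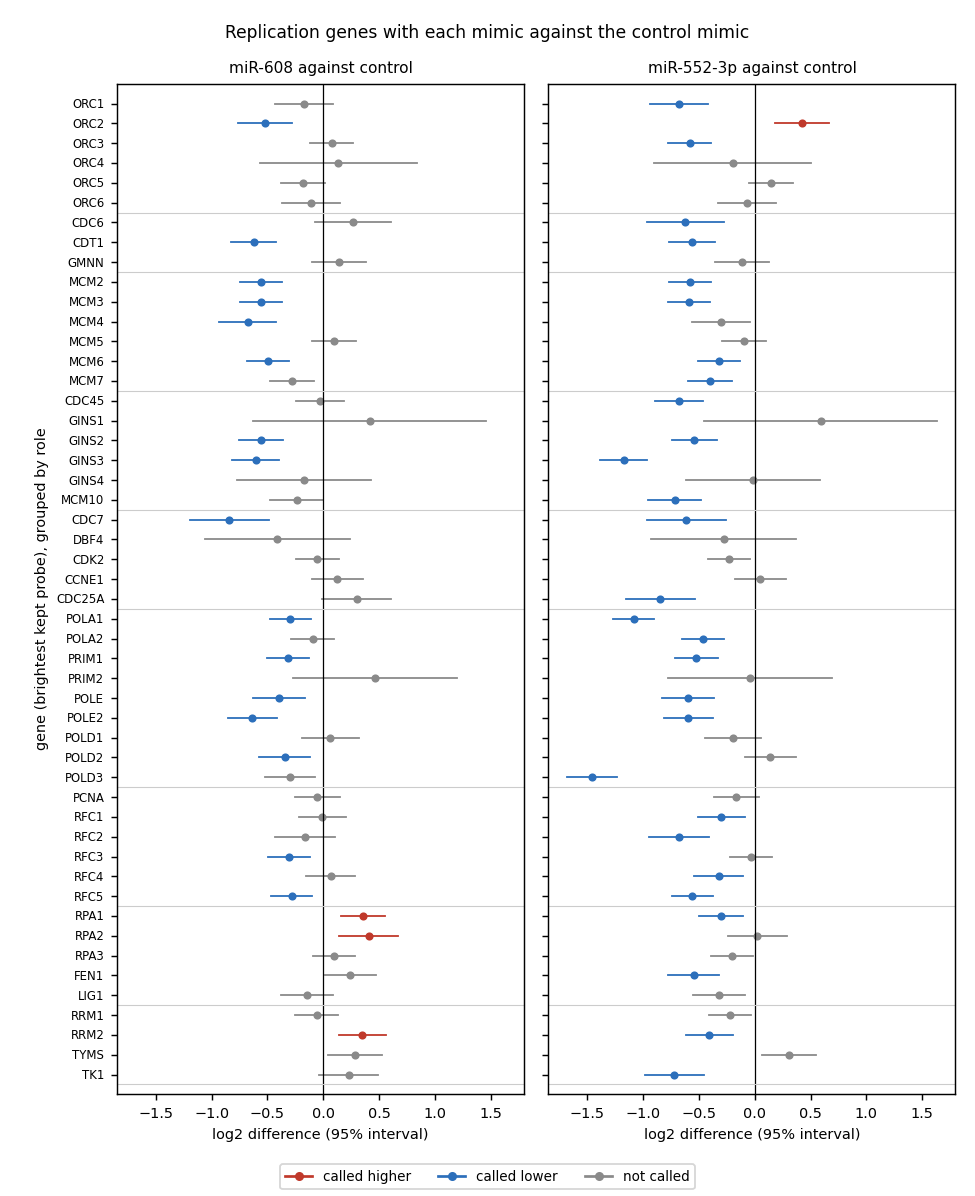
Points give the log2 difference of each replication gene with miR-608 (left) and miR-552-3p (right) against the control mimic, with 95% intervals as bars; blue was called lower, red higher and grey not called, and the rows are grouped by role. With miR-552-3p most points lie left of 0, down to POLD3 at -1.46, and with miR-608 the lowest is CDC7 at -0.84.

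Among the kinases and activators that start S phase, CDC7 phosphorylates the MCM ring together with its activator DBF4. CDC7 showed the lowest difference of all 50 genes with miR-608: it had 9.66 and 9.39 on the miR-608 arrays, 9.62 and 9.88 on the miR-552-3p arrays, and 10.40 and 10.33 on the control arrays. Its mimic arrays overlap each other and lie below the control, with differences of -0.84 ± 0.14 with miR-608 (1.79-fold, adjusted p = 0.0120) and -0.61 ± 0.14 with miR-552-3p (adjusted p = 0.0265). Both calls needed both control arrays, the first also miR-608 array 2 (adjusted p of 0.0542 to 0.0674 without one of them) and the second miR-552-3p array 1 (0.0912 to 0.114). CDC25A, the phosphatase that removes inhibitory phosphates from CDK2, had 9.97 and 9.89 on the miR-608 arrays, 8.94 and 8.63 on the miR-552-3p arrays, and 9.62 and 9.65 on the control arrays. The miR-552-3p arrays were lowest and the miR-608 arrays highest. It fell with miR-552-3p, -0.85 ± 0.12 (1.80-fold, adjusted p = 0.00711), and its difference with miR-608 was 0.30 ± 0.12 (adjusted p = 0.132). A second, dim CDC25A probe passed in no comparison. CDK2 passed with neither mimic by its brightest probe (-0.05 and -0.23), while its other probe was higher with miR-552-3p, 0.47 ± 0.13 (adjusted p = 0.0459). Cyclin E1 (CCNE1), the partner of CDK2, did not pass either, at 0.13 and 0.05. DBF4 was not detected on either miR-608 array, so that its fold is a bound, at least 1.13-fold lower than with the control mimic, and it did not pass (adjusted p = 0.293).

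Polymerase alpha with primase starts each new strand, polymerase epsilon extends the leading strand and polymerase delta the lagging one. Of these 9 genes 5 fell with miR-608 (55.6%, against 16.8% of all named genes), of which only POLE2 passed whichever array was left out, and 6 fell with miR-552-3p (66.7%, against 20.0%). POLD3, a regulatory subunit of polymerase delta, showed the largest change of the set: it had 9.98 and 9.91 on the miR-608 arrays, 8.84 and 8.73 on the miR-552-3p arrays, and 10.29 and 10.19 on the control arrays. The miR-552-3p arrays lie more than 1 log2 unit below all the others. It fell by 2.75-fold with miR-552-3p (-1.46 ± 0.09, adjusted p = 0.00104), and its difference with miR-608, -0.30 ± 0.09, did not pass (adjusted p = 0.0596). POLD1, the catalytic subunit of the same enzyme, differed by -0.20 with miR-552-3p and did not pass (adjusted p = 0.204), with a 95% interval of -0.45 to 0.06. POLD2 fell with miR-608, -0.34 ± 0.09 (adjusted p = 0.0436), and not with miR-552-3p (0.14).

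POLA1, the catalytic subunit of polymerase alpha, had 10.74 and 10.73 on the miR-608 arrays, 9.95 and 9.94 on the miR-552-3p arrays, and 11.04 and 11.02 on the control arrays. Replicates lie close together and the 3 groups are separate. It fell by 2.12-fold with miR-552-3p (-1.09 ± 0.07, adjusted p = 0.00116) and by 1.23-fold with miR-608 (-0.29 ± 0.07, adjusted p = 0.0345). A second POLA1 probe was undetected on both miR-552-3p arrays, at least 1.25-fold lower than with the control mimic without passing (adjusted p = 0.109), and it stood at 0.22 with miR-608. POLA2, the subunit that ties primase to the polymerase, fell with miR-552-3p, -0.46 ± 0.07 (adjusted p = 0.00988). PRIM1, the catalytic primase, fell with both, with differences of -0.32 ± 0.07 with miR-608 (adjusted p = 0.0328) and -0.52 ± 0.07 with miR-552-3p (adjusted p = 0.00711). PRIM2, its partner, passed with neither. For the leading strand, POLE2, the second subunit of polymerase epsilon, had 10.72 and 10.77 on the miR-608 arrays, 10.72 and 10.85 on the miR-552-3p arrays, and 11.35 and 11.42 on the control arrays. Both mimics lie below the control, with differences of -0.64 ± 0.09 with miR-608 (1.56-fold, adjusted p = 0.00721) and -0.59 ± 0.09 with miR-552-3p (adjusted p = 0.00728). The catalytic subunit POLE fell too, -0.39 ± 0.09 with miR-608 (adjusted p = 0.0318) and -0.60 ± 0.09 with miR-552-3p (adjusted p = 0.00862). With any single array removed, the miR-608 calls of POLA1 (adjusted p of 0.0671 to 0.125), PRIM1 (0.0595 to 0.125), POLE (0.0540 to 0.133) and POLD2 (0.0620 to 0.152) did not pass. The miR-552-3p calls of POLE (0.0503 to 0.0506) and POLA2 (0.0546 to 0.0568) were lost without control array 1 or miR-552-3p array 1.

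**Figure D4:**
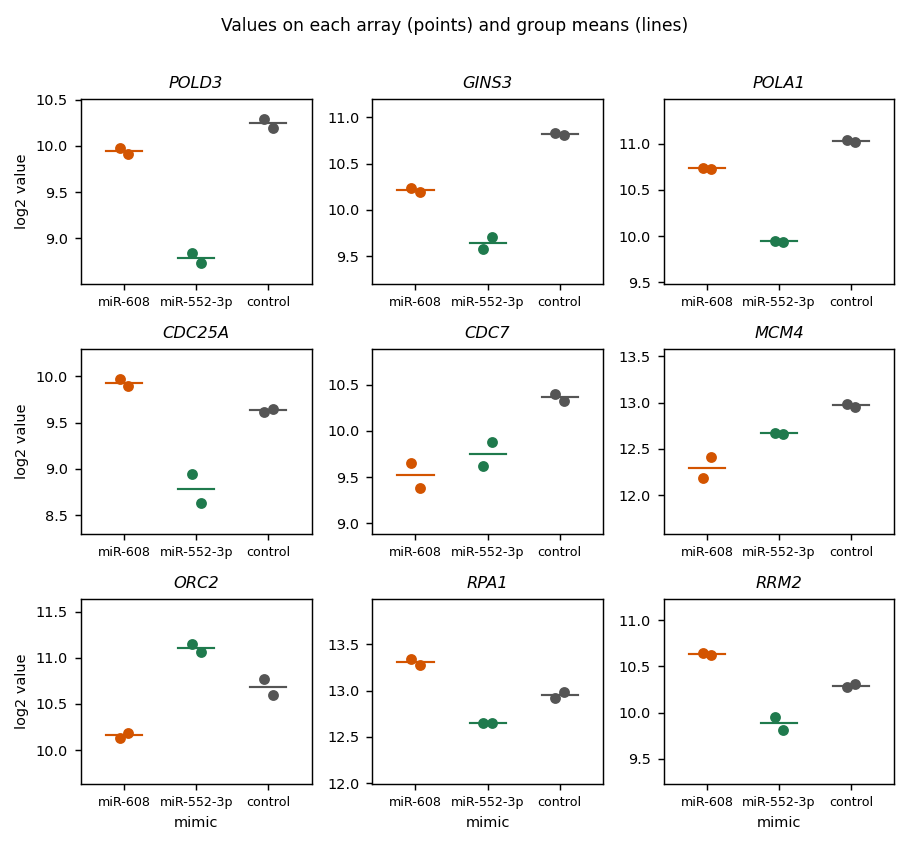
Points are the log2 values of 9 replication genes on each of the 2 arrays per mimic, lines are group means, and every panel spans 2 log2 units. POLD3, GINS3 and POLA1 are lowest with miR-552-3p, and MCM4 with miR-608. CDC7 has its lowest mean with miR-608, but its arrays of the 2 mimics overlap. ORC2, RPA1 and RRM2 lie on opposite sides of the control with the 2 mimics.

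PCNA is the ring that holds polymerases on DNA, and RFC1 to RFC5 form the loader that opens it. PCNA itself passed with neither mimic: it had 13.44 and 13.49 on the miR-608 arrays, 13.35 and 13.36 on the miR-552-3p arrays, and 13.47 and 13.56 on the control arrays, with 95% intervals of the difference of -0.25 to 0.15 for miR-608 and -0.36 to 0.03 for miR-552-3p. Its miR-608 arrays overlap the control arrays and its miR-552-3p arrays lie just below them. Of the 5 loader subunits 2 fell with the miR-608 mimic and 4 with miR-552-3p, where 16.8% and 20.0% of all named genes fell. RFC2 had 9.18 and 9.23 on the miR-608 arrays, 8.80 and 8.59 on the miR-552-3p arrays, and 9.43 and 9.31 on the control arrays. Its miR-552-3p arrays were lowest, -0.68 ± 0.11 (1.60-fold, adjusted p = 0.00902), a call lost only without control array 1 (adjusted p = 0.0533). RFC5 fell with both, -0.28 ± 0.07 with miR-608 (adjusted p = 0.0391) and -0.56 ± 0.07 with miR-552-3p (adjusted p = 0.00522). RFC3 fell with miR-608, -0.31 ± 0.07 (adjusted p = 0.0339), and had -0.04 with miR-552-3p. RFC1 and RFC4 fell with miR-552-3p, -0.30 ± 0.08 (adjusted p = 0.0469) and -0.32 ± 0.09 (adjusted p = 0.0436). Whichever array was left out, 4 of these calls did not pass, with their adjusted p: RFC3 (0.0619 to 0.122) and RFC5 (0.0738 to 0.142) with miR-608, and RFC1 (0.0644 to 0.172) and RFC4 (0.0650 to 0.164) with miR-552-3p. The second probes of RFC1 (-0.33) and RFC2 (-0.48) lay on the same side with miR-552-3p without passing, and that of RFC5 (0.08) did not follow.

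RPA coats the single strand that the helicase exposes, FEN1 trims the ends of lagging strand fragments and LIG1 joins them. Here the mimics went apart: with miR-608 RPA1 and RPA2 rose and none of the 5 fell, and with miR-552-3p RPA1 and FEN1 fell and none rose. Of all named genes 16.3% rose with miR-608 and 20.0% fell with miR-552-3p. RPA1, the large subunit, had 13.34 and 13.28 on the miR-608 arrays, 12.65 and 12.65 on the miR-552-3p arrays, and 12.92 and 12.99 on the control arrays. The 3 groups are separate, with miR-608 on top, at 0.35 ± 0.08 (adjusted p = 0.0253), and miR-552-3p lowest, at -0.30 ± 0.08 (adjusted p = 0.0364). Neither RPA1 call passed once any one array was dropped (adjusted p of 0.0528 to 0.110 for the rise and 0.0628 to 0.140 for the fall). Its 2 other probes gave 0.48 (adjusted p = 0.0117) and 0.39 (adjusted p = 0.0582) with miR-608. With miR-552-3p they gave -0.15 and -0.14, which did not pass. RPA2 rose with miR-608, 0.41 ± 0.10 (adjusted p = 0.0410), again in no fit with an array left out (0.0518 to 0.156), and had 0.02 with miR-552-3p. FEN1 had 13.41 and 13.28 on the miR-608 arrays, 12.51 and 12.60 on the miR-552-3p arrays, and 13.06 and 13.15 on the control arrays. It fell with miR-552-3p, -0.55 ± 0.09 (1.46-fold, adjusted p = 0.0105), a call lost without control array 2 or miR-552-3p array 1 (0.0584 to 0.0590), and its other probe stood at -0.29 (adjusted p = 0.0746). RPA3 and LIG1 passed with neither mimic against the control.

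The last role is the supply of deoxynucleotides. RRM2, the small subunit of ribonucleotide reductase and the one that limits its activity in S phase, had 10.65 and 10.63 on the miR-608 arrays, 9.95 and 9.82 on the miR-552-3p arrays, and 10.27 and 10.31 on the control arrays. The miR-608 arrays lie above the control and the miR-552-3p arrays below it, with differences of 0.35 ± 0.08 (adjusted p = 0.0335) and -0.41 ± 0.08 (adjusted p = 0.0196). The rise needed each control and miR-608 array (adjusted p of 0.105 to 0.129 without one) and was also lost with median centring and without the detection filter, the fall both control arrays and miR-552-3p array 2 (0.0750 to 0.0883). TK1, the thymidine kinase that is made in S phase, had 12.85 and 13.05 on the miR-608 arrays, 11.98 and 12.03 on the miR-552-3p arrays, and 12.66 and 12.79 on the control arrays. Its miR-552-3p arrays are lowest, -0.72 ± 0.10 (1.65-fold, adjusted p = 0.00710), and the miR-608 difference of 0.23 ± 0.10 did not pass (adjusted p = 0.167). RRM1, the large reductase subunit, and TYMS, which makes thymidylate, passed with neither mimic. TYMS stood at 0.28 with the miR-608 mimic and 0.30 with miR-552-3p (adjusted p = 0.0860 and 0.0673).

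Compared with each other, the 2 mimics differed in 25 of the 50 genes: 20 were higher with miR-608 than with miR-552-3p (40%, against 22.7% of all named genes) and 5 were lower (10%, against 19.7%). Of all probes 36.5% were called either way. The median difference was 0.21, against 0.01 over all genes. POLD3 had the largest gap, 1.16 ± 0.09 (2.24-fold higher with miR-608, adjusted p = 0.00102), and CDC25A came next with 1.14 ± 0.12 (2.21-fold, adjusted p = 0.00238). For both, the per-array values above show the miR-608 arrays well above the miR-552-3p ones. TK1 differed by 0.95 ± 0.10 (adjusted p = 0.00256), CDC6 by 0.89 ± 0.13 (adjusted p = 0.00681) and POLA1 by 0.79 ± 0.07 (adjusted p = 0.00153). FEN1 differed by 0.79 ± 0.09 (adjusted p = 0.00292), RRM2 by 0.75 ± 0.08 (adjusted p = 0.00261) and RPA1 by 0.66 ± 0.08 (adjusted p = 0.00307). These genes span licensing, synthesis and nucleotide supply. ORC3 had 10.57 and 10.58 on the miR-608 arrays, against 9.94 and 9.89 on the miR-552-3p arrays, a difference of 0.66 ± 0.07 (adjusted p = 0.00291). ORC2 ran the other way, -0.94 ± 0.09 (1.92-fold lower with miR-608, adjusted p = 0.00207).

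The other genes lower with miR-608 than with miR-552-3p were ORC5 (-0.33), MCM4 (-0.37), POLD2 (-0.48) and RFC3 (-0.27). The remaining 11 higher ones, from CDC45 (0.65) to RFC5 (0.27), were GINS3, MCM10, ORC1, POLA2, RFC1, RFC2, RFC4, RFC5, RPA2, RPA3 and CDC45. Of the genes that fell with each mimic, MCM2, MCM3, MCM6, CDT1, GINS2, CDC7, PRIM1, POLE and POLE2 did not pass here: the differences lay between -0.23 (CDC7) and 0.21 (POLE), with 95% intervals that reached from -0.58 (CDC7) to 0.44 (POLE). In fits without one array, 13 to 19 genes passed. In every one of them CDC6, CDC45, GINS3, ORC3, POLA1, POLD3, RPA1, RRM2, TK1, FEN1 and CDC25A stayed higher and ORC2 lower. Probes of one gene disagreed in sign for RFC3: its brightest probe and another were lower with miR-608 (-0.27 and -0.68), and another was higher (1.29, adjusted p = 0.0119), so the direction of RFC3 depends on the probe. With median centring the call of RFC4 was lost. The calls of RFC1, RFC3, RFC5, RPA2 and RPA3 passed neither with median centring nor in any of the fits with an array left out. Those of ORC5, RFC4, POLA2 and POLD2 needed every array of both mimics (highest adjusted p = 0.115, ORC5), and that of MCM4 every array but miR-608 array 2 (0.0715 to 0.133). The call of ORC1 needed miR-608 array 2 and miR-552-3p array 1 (0.0714 to 0.0787), that of MCM10 miR-608 array 1 and both miR-552-3p arrays (0.0611 to 0.0733), and that of RFC2 both miR-608 arrays and miR-552-3p array 2 (0.0626 to 0.0787).

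**Figure D5:**
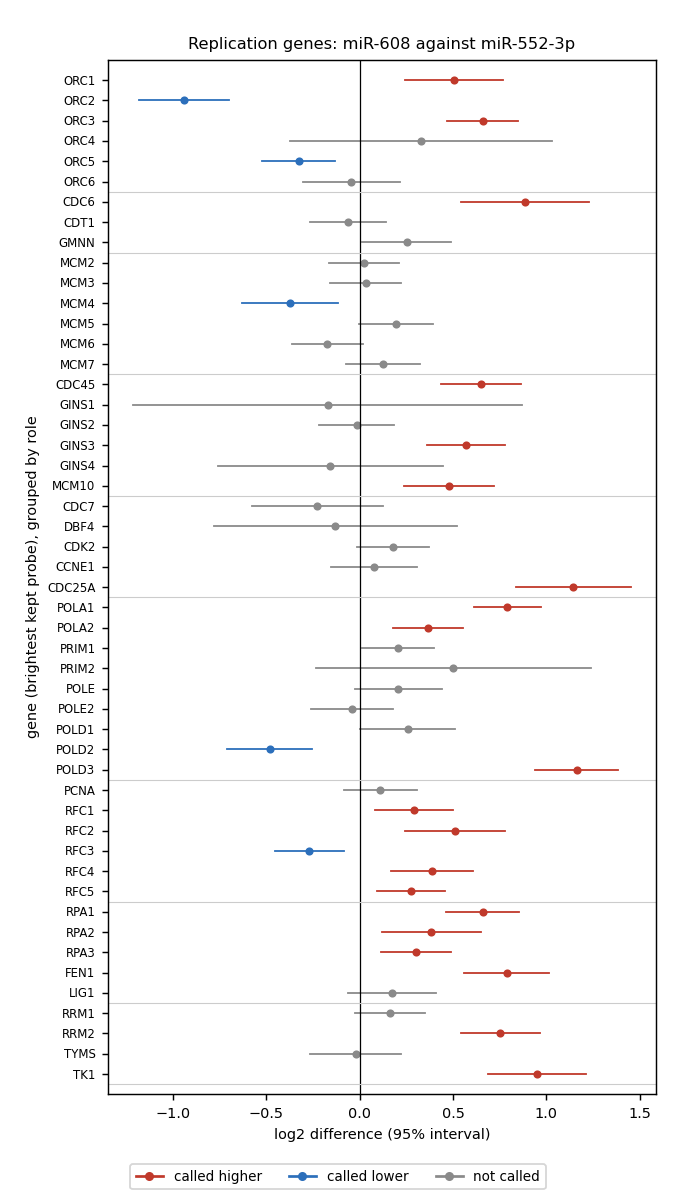
Points give the log2 difference of each replication gene with miR-608 against miR-552-3p, with 95% intervals as bars, coloured by call as red higher, blue lower and grey not called. Most called points lie right of 0, the farthest being POLD3 at 1.16 and CDC25A at 1.14, and ORC2 at -0.94 is the farthest on the left.

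Of the 50 genes 20 had more than one kept probe. Within these, the probes of a gene differed in their calls for 5 genes with miR-608 and for 10 with miR-552-3p. In the direct comparison they differed for 7 genes, among them RFC3, whose 3 probes all passed. RFC3 was the 1 gene with probes called in opposite directions, in the direct comparison. Its brightest probe had 10.32 and 10.31 on the miR-608 arrays, 10.55 and 10.61 on the miR-552-3p arrays, and 10.61 and 10.63 on the control arrays. A probe that followed it had 9.92 and 10.04 on the miR-608 arrays, 10.65 and 10.66 on the miR-552-3p arrays, and 10.60 and 10.48 on the control arrays. The remaining RFC3 probe had 8.12 and 7.93 on the miR-608 arrays, 6.54 and 6.94 on the miR-552-3p arrays, and 7.55 and 6.98 on the control arrays. On the first 2 the miR-608 arrays are lowest and on the last they are highest: with miR-608 against the control the probes gave -0.31, -0.56 (adjusted p = 0.0107) and 0.76 (adjusted p = 0.0668). CDK2 had 12.31 and 12.27 on the miR-608 arrays, 12.14 and 12.07 on the miR-552-3p arrays, and 12.33 and 12.35 on the control arrays by its brightest probe. The other CDK2 probe had 8.44 and 8.54 on the miR-608 arrays, 8.85 and 8.76 on the miR-552-3p arrays, and 8.49 and 8.17 on the control arrays. The miR-552-3p arrays are lowest on the first and highest on the second. MCM4 had 11.03 and 11.30 on the miR-608 arrays, 11.45 and 11.47 on the miR-552-3p arrays, and 11.91 and 11.88 on the control arrays by its second probe, the same order of groups as on the first.

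Other genes also had probes of which some passed in a comparison and others did not. ORC5 had 11.74 and 11.82 on the miR-608 arrays, 12.12 and 12.09 on the miR-552-3p arrays, and 11.94 and 11.98 on the control arrays by its brightest probe, with a direct difference of -0.33 ± 0.08 (adjusted p = 0.0262). Its second probe had 7.87 and 7.57 on the miR-608 arrays, 8.37 and 8.13 on the miR-552-3p arrays, and 8.23 and 7.78 on the control arrays, a difference of -0.53 ± 0.20 (adjusted p = 0.0945). The miR-608 arrays are below the miR-552-3p arrays on both. POLD2 had 11.63 and 11.67 on the miR-608 arrays, 12.12 and 12.14 on the miR-552-3p arrays, and 11.90 and 12.08 on the control arrays. Its second probe had 8.02 and 7.58 on the miR-608 arrays, 8.47 and 8.90 on the miR-552-3p arrays, and 7.80 and 8.30 on the control arrays. On that probe the miR-608 and control arrays overlap, at -0.25, and the direct difference of -0.89 ± 0.26 passed (adjusted p = 0.0468). A second RPA1 probe had 12.26 and 12.37 on the miR-608 arrays, 11.68 and 11.68 on the miR-552-3p arrays, and 11.81 and 11.85 on the control arrays. The remaining one had 12.11 and 11.98 on the miR-608 arrays, 11.39 and 11.63 on the miR-552-3p arrays, and 11.70 and 11.60 on the control arrays. On both, the miR-608 arrays are above all others. The second FEN1 probe had 11.12 and 11.06 on the miR-608 arrays, 10.41 and 10.58 on the miR-552-3p arrays, and 10.75 and 10.81 on the control arrays, in the order of the first, and passed in the direct comparison (0.60 ± 0.09, adjusted p = 0.00747).

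MCM7 had 13.71 and 13.72 on the miR-608 arrays, 13.55 and 13.64 on the miR-552-3p arrays, and 14.02 and 13.97 on the control arrays by its brightest probe. Its second probe had 8.55 and 8.35 on the miR-608 arrays, 8.45 and 8.39 on the miR-552-3p arrays, and 8.40 and 8.60 on the control arrays, on which the 3 groups overlap. RFC1 had 10.58 and 10.46 on the miR-608 arrays, 10.23 and 10.24 on the miR-552-3p arrays, and 10.57 and 10.50 on the control arrays, with the miR-552-3p arrays lowest. Its second probe had 8.31 and 8.49 on the miR-608 arrays, 8.44 and 8.19 on the miR-552-3p arrays, and 8.65 and 8.63 on the control arrays, on which both mimics lie below the control. RFC2 had 7.75 and 7.40 on the miR-608 arrays, 7.30 and 7.47 on the miR-552-3p arrays, and 7.68 and 8.04 on the control arrays by its second probe, with the miR-608 and control arrays overlapping. RFC5 had 12.47 and 12.43 on the miR-608 arrays, 12.18 and 12.17 on the miR-552-3p arrays, and 12.73 and 12.73 on the control arrays by its brightest probe, with 3 separate groups. Its second probe, near background, had 6.27 and 5.88 on the miR-608 arrays, 6.68 and 6.04 on the miR-552-3p arrays, and 6.19 and 6.37 on the control arrays, and all groups overlap. The second CDC25A probe, also dim, had 6.21 and 6.60 on the miR-608 arrays, 6.60 and 5.64 on the miR-552-3p arrays, and 6.57 and 6.39 on the control arrays, again with overlap of all groups. The second POLA1 probe had 7.06 and 6.42 on the miR-608 arrays, 5.83 and 6.04 on the miR-552-3p arrays, and 6.45 and 6.60 on the control arrays. It was not detected on the miR-552-3p arrays, and with miR-608 its mean was at least 1.45-fold higher than there (adjusted p = 0.0429).

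A further list of 62 genes of the same pathway, covering origin firing, fork protection, nucleotide supply, chromatin assembly and S-phase control, held 58 measured ones. With miR-552-3p 23 of the 58 fell (39.7%, against 20.0% of all named genes) and 5 rose (8.62%, against 15.6%). With miR-608 11 fell (19.0%, near the 16.8% of all named genes) and 10 rose (17.2%, near the 16.3%). E2F2, an activator of replication genes, had 9.73 and 9.51 on the miR-608 arrays, 9.11 and 9.15 on the miR-552-3p arrays, and 10.77 and 10.80 on the control arrays. It was 3.14-fold lower with miR-552-3p (-1.65 ± 0.10, adjusted p = 0.00105) and 2.24-fold lower with miR-608 (-1.16 ± 0.10, adjusted p = 0.00247). E2F1 and E2F3, on the same list, passed with neither mimic against the control. NASP, a histone chaperone, had 8.86 and 8.77 on the miR-608 arrays, 8.75 and 8.80 on the miR-552-3p arrays, and 9.97 and 9.97 on the control arrays. Both mimics lie far below the control, -1.15 ± 0.08 with miR-608 (adjusted p = 0.00181) and -1.20 ± 0.08 with miR-552-3p (adjusted p = 0.00116). CHAF1B, a subunit of the chromatin assembly factor that follows the fork, fell with miR-608, -0.90 ± 0.10 (adjusted p = 0.00432), and with miR-552-3p, -0.56 ± 0.10 (adjusted p = 0.0124), the second not without control array 1 or 2 (0.0560 to 0.0658). DTL, which directs the destruction of CDT1, fell with miR-552-3p, -0.75 ± 0.09 (adjusted p = 0.00393). It was also called lower with miR-608, a call lost with median centring and without the detection filter. That call did not pass whichever array was left out, nor with only the compared groups in the fit, nor with the replicate number as a block. FBXW7, which marks cyclin E for destruction, rose with both, 1.11 ± 0.09 (adjusted p = 0.00229) with miR-608 and 0.60 ± 0.09 (adjusted p = 0.00851) with miR-552-3p, and of its 2 other probes 1 was also called higher with each mimic and 1 was not called. RRM2B, a reductase subunit that p53 induces, rose with miR-552-3p, 0.76 ± 0.08 (adjusted p = 0.00340), by 1 of its 2 probes.

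Several genes of S-phase control moved apart between the mimics. CDKN1A, the CDK inhibitor p21, had 12.95 and 12.90 on the miR-608 arrays, 14.39 and 14.37 on the miR-552-3p arrays, and 13.48 and 13.49 on the control arrays. It fell with miR-608, -0.56 ± 0.07 (adjusted p = 0.00648), and rose with miR-552-3p, 0.90 ± 0.07 (adjusted p = 0.00176), a gap of -1.46 ± 0.07 between the mimics (adjusted p = 0.000575). CDKN1B, the inhibitor p27, ran the other way with 10.98 and 10.98 on the miR-608 arrays, 9.92 and 9.82 on the miR-552-3p arrays, and 10.28 and 10.29 on the control arrays. The gap was 1.11 ± 0.08 (adjusted p = 0.000894), and the fall with miR-552-3p (-0.41 ± 0.08, adjusted p = 0.0154) did not pass without control array 1, control array 2 or miR-552-3p array 2 (0.0687 to 0.0755). WEE1, the kinase that holds CDKs inactive, had 11.56 and 11.60 on the miR-608 arrays, 10.36 and 10.29 on the miR-552-3p arrays, and 10.93 and 10.92 on the control arrays. Its groups are separate, with a gap of 1.26 ± 0.07 (adjusted p = 0.000677). Of the fork and chromatin genes, ASF1B, a histone chaperone, CHTF18, part of an alternative clamp loader, and RNASEH2A, which removes RNA from DNA, were higher with miR-608 than with miR-552-3p, by 1.07 ± 0.07 (adjusted p = 0.000839), 1.15 ± 0.10 (adjusted p = 0.00140) and 0.88 ± 0.08 (adjusted p = 0.00143). In the direct comparison 17 of the 58 were higher (29.3%, against 22.7% of all named genes) and 5 lower (8.62%, against 19.7%).

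Because most of these genes are known E2F targets, the 250 bases upstream of their starts were read from RefSeq (GRCh38.p14). An entry was found for 43 of the 50 genes. A single start was read for each gene, so any other starts and the bases after the start were not searched. The E2F words searched were TTTCCCGC, TTTCGCGC, TTTGCCGC and TTTGGCGC on both strands, and overlapping words were counted separately. At least one was found in 14 of the 43 (32.6%), against 2.79% of 27305 promoters of the same length. Among the 15034 promoters of genes on the platform it was 3.72%. Among genes that fell with miR-552-3p it was 10 of 27 (37.0%) and among those not called 4 of 15 (26.7%). With miR-608 it was 7 of 15 (46.7%) that fell and 7 of 26 (26.9%) not called. The CCAAT word, bound by NF-Y, was in 23 of the 43 (53.5%), against 33.0% of all promoters and 34.7% of those of platform genes. It was in 17 of 27 (63.0%) of the genes that fell with miR-552-3p and 5 of 15 (33.3%) of those not called. With miR-608 it was in 9 of 15 (60.0%) that fell and 12 of 26 (46.2%) not called. The CHR word TTTGAA of late cell-cycle promoters was in 1 of the 43 (2.33%), against 13.6% of all promoters and 10.8% of those of platform genes. These are counts of letters, with no test, and say nothing of binding.

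Of the genes with an entry, 4 promoters are shown: GINS3 and POLA1 for the largest falls with miR-552-3p, MCM6 for the most E2F words and ORC2 for its opposite directions. The E2F words and CCAAT (or ATTGG, the other strand) are in capitals. They lie at chr16:58392221-58392470 on the plus strand (GINS3), chrX:24693668-24693917 on the plus strand (POLA1), chr2:135876444-135876693 on the minus strand (MCM6) and chr2:200963661-200963910 on the minus strand (ORC2).
GINS3: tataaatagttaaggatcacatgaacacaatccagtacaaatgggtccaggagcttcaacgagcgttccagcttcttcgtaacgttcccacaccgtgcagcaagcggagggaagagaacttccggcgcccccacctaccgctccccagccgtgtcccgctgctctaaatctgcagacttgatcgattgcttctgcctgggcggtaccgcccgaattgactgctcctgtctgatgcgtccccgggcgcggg
POLA1: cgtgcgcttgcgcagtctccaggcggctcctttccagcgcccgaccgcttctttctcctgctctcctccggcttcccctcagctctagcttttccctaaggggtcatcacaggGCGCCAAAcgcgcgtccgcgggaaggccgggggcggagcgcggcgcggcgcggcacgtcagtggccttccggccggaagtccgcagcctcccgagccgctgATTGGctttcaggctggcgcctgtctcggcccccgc
MCM6: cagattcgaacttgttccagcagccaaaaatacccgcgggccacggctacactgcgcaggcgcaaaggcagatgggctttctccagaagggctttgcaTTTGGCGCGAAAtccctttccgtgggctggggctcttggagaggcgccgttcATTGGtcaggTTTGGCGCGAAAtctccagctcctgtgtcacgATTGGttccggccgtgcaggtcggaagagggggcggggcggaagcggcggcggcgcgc
ORC2: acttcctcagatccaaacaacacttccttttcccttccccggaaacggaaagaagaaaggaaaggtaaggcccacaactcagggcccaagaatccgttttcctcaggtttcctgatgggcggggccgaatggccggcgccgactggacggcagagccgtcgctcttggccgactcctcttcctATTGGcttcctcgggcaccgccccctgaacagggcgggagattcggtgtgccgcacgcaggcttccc
GINS3 holds 0 words of either kind, POLA1 has 1 E2F and 1 CCAAT word, MCM6 has 4 E2F words in 2 overlapping pairs and 2 CCAAT words, and ORC2 has 0 E2F words and 1 CCAAT word. GINS3 and MCM6 both fell with each mimic, the MCM6 fall with miR-552-3p not with median centring. Whether such words bear on a fall was not tested.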

How the data were processed

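RNA of A549 cells from 3 groups of 2 arrays was measured on Illumina bead arrays. The authors deposited, for 47319 probes, a mean signal intensity per array in linear units that came from GenomeStudio 2011.1 per the submitters' processing notes; whether background had been subtracted was not given in the sources used here. Each intensity is deposited with a detection p-value, per the file headers. A second deposited table holds log2 values, taken as an alternative; how they were normalized was not given in the sources used here.

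Background was removed from the intensities by normexp, with the negative controls inferred from the detection p-values, an offset of 16 was added, and quantile normalization and log2 followed (neqc, limma 3.58.1, R 4.3.3). The offset understates changes of dim probes. Keeping probes detected (p under 0.05) on 2 or more arrays removed 26570. A single platform symbol was held by 30112 of all probes, several by 8, while 17199 have no entry in it and stay without a name here. One model over all 6 arrays was fitted (lmFit, eBayes, with 3 residual degrees of freedom and 5.18 in total), with two-sided tests and p-values adjusted by Benjamini-Hochberg across the kept probes, at a threshold of 0.05. The brightest kept probe by mean stood for a gene. Where a probe was undetected on both arrays of a group, the fold is a bound against the lowest detected value or the probe's own, whichever was higher. Such a bound is on the group means and leaves out their spread. The number of arrays limits the precision.

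The members and lists were chosen with earlier results of these data known, so no test over a list was made. Every member may be named; full values are given for up to 10 called members per comparison with the largest difference and no overlap, for opposite calls and for probes that disagree, and up to 6 other genes per comparison with the smallest p are named. Alternatives changed the background correction, normalization, detection filter, variance trend, samples in the fit, probes per gene and replicate block, and left out each array. The model was also run on simulated data with independent noise and few changed probes, as a check of the code only. That run does not bear on the share of calls in these data. Slide was not used as a block because the files used here name none.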

Additional observations from a re-analysis of the deposited data

How the results depend on the processing

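No difference called in the model over all arrays, or in an alternative, had the opposite sign in the other. With 2 arrays a group, the counts of calls were the least stable values. Leaving out each array in turn, 6 to 12 replication genes passed with miR-608 against 19 over all arrays, 19 to 25 with miR-552-3p against 29, and 13 to 19 in the direct comparison against 25; the median difference of the replication genes with miR-552-3p was -0.39 to -0.32. Of the other pathway genes 10 to 16, 13 to 26 and 13 to 19 passed in these fits, against 21, 28 and 22. A fit of smaller groups has fewer degrees of freedom. Without the detection filter, 10 replication genes passed with miR-608 and 16 in the direct comparison, and 12 and 16 other genes with miR-608 and miR-552-3p; more probes enter that adjustment. With only the compared groups in the fit, 12 replication genes passed with miR-608. With an intensity trend of the variance, 34 other genes passed in the direct comparison; the cause was not tested. The other settings, among them the authors' log2 values, median centring, no background correction and an offset of 50, left each of these counts within 1.5 times. The replicate numbers are shared by the groups but nothing says that they pair arrays, and the deviations of same-numbered arrays correlated at -0.02 to 0.03 over probes; with the replicate number as a block 10, 24 and 19 replication genes passed, and the calls lost with miR-608 included all 3 rises, RPA1, RPA2 and RRM2. A dim probe such as DBF4 or the second POLA1 probe gives only a bound where it was undetected.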

Other observations

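Some further genes of the pathway list, chosen after their values were seen, add detail by role. Cyclin A2 (CCNA2), the cyclin of ongoing S phase, had 11.93 and 11.98 on the miR-608 arrays, 12.65 and 12.59 on the miR-552-3p arrays, and 12.53 and 12.63 on the control arrays. Its miR-608 arrays lie below all others, with a difference of -0.62 ± 0.08 against the control (adjusted p = 0.00634) and of -0.66 ± 0.08 against miR-552-3p (adjusted p = 0.00346), and both calls passed whichever array was left out. CDC25B, a CDK-activating phosphatase, fell with miR-608, -0.54 ± 0.08 (adjusted p = 0.00868), and with miR-552-3p, -0.52 ± 0.08 (adjusted p = 0.00820), the first not without miR-608 array 2 (adjusted p = 0.0506). DUT, which keeps uracil out of DNA, fell with miR-608, -0.42 ± 0.09 (adjusted p = 0.0213), and with miR-552-3p, -0.59 ± 0.09 (adjusted p = 0.00743), the first not without any one of the control or miR-608 arrays (0.0573 to 0.0949). POLD4, the smallest polymerase delta subunit, rose with miR-608, 0.45 ± 0.07 (adjusted p = 0.0115), and with miR-552-3p, 0.50 ± 0.07 (adjusted p = 0.00720), and the rise with miR-608 was lost without any one of the control or miR-608 arrays (0.0507 to 0.0611). RECQL4, a helicase of origin firing, was higher with miR-608 than with miR-552-3p, 0.91 ± 0.10 (adjusted p = 0.00287). Of the 10 measured genes of chromatin assembly 5 fell with miR-552-3p and none rose, and of the 15 of fork protection 6 fell and 1 rose, where 20.0% of all named genes fell and 15.6% rose.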
